A study of Mus musculus with 6 samples.

Results

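The intercalated disc junction genes described here are 10 genes for the contacts that join heart muscle cells end to end: the connexin genes Gja1 and Gja5, the cadherin genes Cdh2 and Cdh3, the alpha-catenin gene Ctnna3, and the desmosome genes Dsp, Pkp2, Jup, Dsg2 and Dsc2. They were chosen by name as junction genes, with earlier results of these data known, out of 20121 genes with deposited counts. All 10 had counts in the files. Whole hearts of mice aged 14 days after birth (strain background mixed, ICR and C57BL/6) were sequenced for RNA. The 3 mutant pups (Myh6-Cre; TRalphaAMI) carried Cre recombinase under the Myh6 promoter, which is active in heart muscle cells, together with the knock-in TRalphaAMI allele, whose dominant negative thyroid hormone receptor alpha is made only after Cre has acted. The 3 control pups (TRalphaAMI) were littermates that carried the same allele without Cre. Each heart came from its own pup, and no group carried Cre alone, so effects of Cre and of the altered receptor cannot be told apart.

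Several kinds of junction meet in the disc. Gap junctions are channels built of connexins through which current passes from cell to cell. Adherens junctions hold the cells together by cadherins, which are tied through beta- and alpha-catenins to the actin of the contractile fibres, and desmosomes are spot welds in which desmogleins and desmocollins are tied through plakoglobin, plakophilin and desmoplakin to the desmin filaments. In the mouse heart these junctions gather at the cell ends in the weeks after birth, and inherited faults of the desmosome genes cause arrhythmogenic cardiomyopathy.

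Start-site sequence was searched in every member with an entry, because a thyroid hormone receptor binds copies of the half-site AGGTCA, and is shown for Dsp and Ctnna3, the members with an entry that were called higher in the comparison below. RefSeq windows on GRCm38.p6, the build also called mm10, were matched by symbol for Gja1, Gja5, Dsp, Jup and Ctnna3 (7 windows for 5 of the 10 genes). There was no entry for Cdh2, Cdh3, Pkp2, Dsg2 or Dsc2. The 250 bases before a start are printed 5′ to 3′ on the strand of the gene, in lower case, with any AGGTCA in capitals, for the desmoplakin gene and for the first 2 of the 3 starts of Ctnna3, in that order, at chr13:38151044-38151293, chr10:63429848-63430097 and chr10:63457261-63457510, each on the plus strand.
Dsp: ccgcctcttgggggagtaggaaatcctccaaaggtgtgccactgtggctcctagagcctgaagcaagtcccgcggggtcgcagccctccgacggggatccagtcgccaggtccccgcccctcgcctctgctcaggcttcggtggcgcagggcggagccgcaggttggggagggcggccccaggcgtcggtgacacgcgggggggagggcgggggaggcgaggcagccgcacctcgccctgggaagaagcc
Ctnna3, first start: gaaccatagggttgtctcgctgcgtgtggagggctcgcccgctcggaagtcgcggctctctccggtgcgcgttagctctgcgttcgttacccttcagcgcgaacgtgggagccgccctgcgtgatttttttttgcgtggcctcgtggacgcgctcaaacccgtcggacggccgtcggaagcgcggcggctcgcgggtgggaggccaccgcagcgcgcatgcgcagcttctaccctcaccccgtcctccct
Ctnna3, second start: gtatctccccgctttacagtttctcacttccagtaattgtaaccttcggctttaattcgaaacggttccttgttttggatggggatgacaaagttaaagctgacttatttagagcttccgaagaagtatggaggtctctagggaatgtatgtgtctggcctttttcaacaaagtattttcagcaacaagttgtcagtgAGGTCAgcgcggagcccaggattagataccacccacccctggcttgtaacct
AGGTCA, searched on both strands, was found in 1 of the 7 windows, 52 bases before the second start of Ctnna3, against 14% of all 32817 RefSeq windows of this length. The direct repeat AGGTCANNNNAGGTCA, which contains that half-site, was found in none of the 7 windows and in 0.0152% of all windows. The Dsp window and the first Ctnna3 window held 72.4% and 67.6% G and C bases, the other Ctnna3 windows 44.8% and 45.6%, and the median of all windows was 52.4%. These are matches of letters in short windows, and no binding was measured.

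The libraries held 43314706 to 62095277 counts. Values are given as CPM, which are counts per 1000000 of a library size scaled by TMM, with the median gene level between groups, or as the deposited RPKM, which divides by gene length and library total and has no such scaling. Transcripts of the mitochondrial genome took 22.3% to 24.8% of the counts in control hearts and 16.7% to 18.8% in mutant hearts. Of 14877 genes tested with edgeR's quasi-likelihood test, 37.5% were called at a Benjamini-Hochberg adjusted p under 0.05, with 18.1% higher and 19.5% lower in mutant hearts. The groups did not overlap in CPM for 49.8%, with 24.4% higher and 25.4% lower. In whole hearts, fewer cells of a type and less RNA per cell cannot be told apart.

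Of the 10 junction genes, 5 rose in mutant hearts and none fell (0 lower at an unadjusted p under 0.05 in edgeR's test, and 0 lower with DESeq2). The 5 were Cdh2, Cdh3, Ctnna3, Dsp and Pkp2, and the values of 6 genes, those 5 and Gja1, did not overlap between groups. Over all genes tested, 18.1% rose and 19.5% fell. Mutant hearts lay above control hearts without overlap for 24.4% of them and below for 25.4%. Cdh3 passed the filter on low counts through its mutant libraries alone. Without it, 4 of 9 rose and the median log2 fold change of the 9 was 0.20, beside 0.00 for all genes tested. Because the genes were chosen with earlier results of these data known, such counts and medians describe the list and do not test it. With libraries scaled to their total counts only, all but Jup were called higher (9 of the 10), where 50.3% of all genes were. The median of the 9 was then 0.49 and that of all genes 0.28, so the distance between them was 0.21, as against 0.20 with TMM. DESeq2 called 6 of the 10 higher, where it called 15.7% of genes higher and 16.5% lower, and edgeR with the replicate number as a block also called 6 (20.8% of genes). On the deposited RPKM, limma called 8 of 9 higher with a pseudocount of 1 (53.4% of genes) or 0.1 (53.3%), and 8 of 10 without a filter on low values (34.4%).

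**Figure D1:**
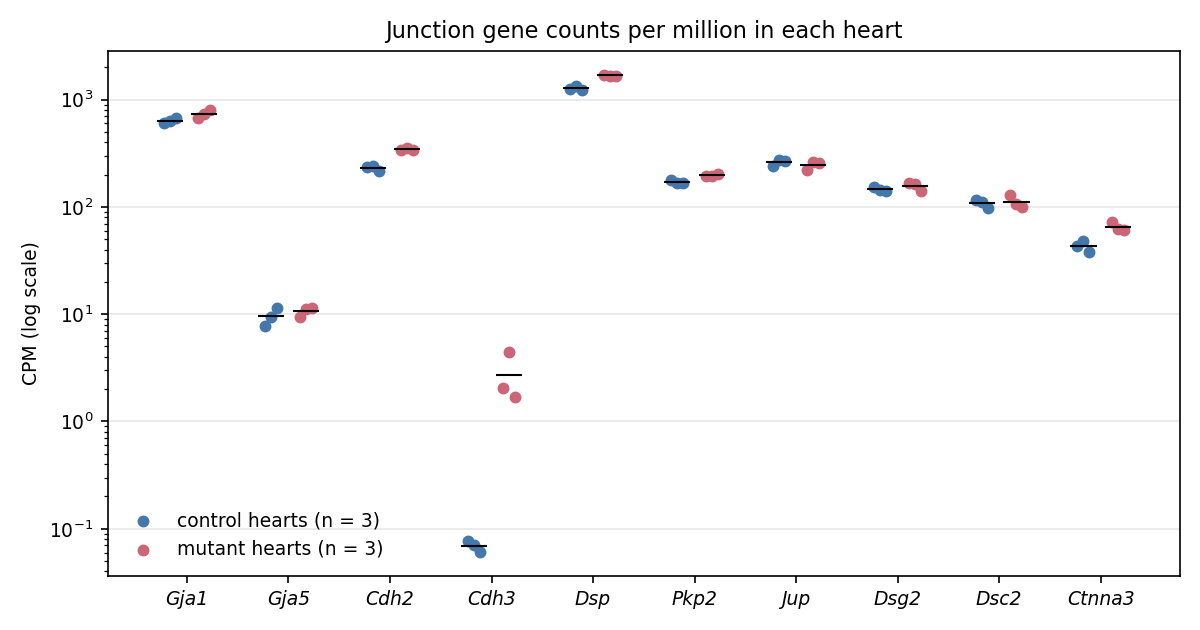
CPM (TMM-scaled, log scale) of the 10 junction genes in each of 3 control and 3 mutant hearts; points are hearts and lines are group means. Cdh3 lies under 0.1 CPM in the control hearts and above 1.6 CPM in the mutant hearts, while the other genes shift by far less.

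Gja1 encodes the main gap junction connexin of working heart muscle (ENSMUSG00000050953, mm10 chromosome 10, 56377330 to 56402513, plus strand). It stood at 599.8, 635.3 and 673.7 CPM in control hearts and at 680.4, 737.3 and 793.1 CPM in mutant hearts. The lowest mutant heart lay just above the highest control heart. The log2 fold change was 0.21 ± 0.08 (SE), and edgeR's quasi-likelihood test gave an adjusted p of 0.0545, so the gene missed the threshold. DESeq2 called it (adjusted p = 0.0330). So did edgeR with total counts only (adjusted p = 0.000745), without mutant replicate 1 (log2 fold change 0.27, adjusted p = 0.0241), the mutant heart with the lowest level, or with the replicate number as a block (adjusted p = 0.0218). Without any 1 of the other hearts the log2 fold change was 0.15 to 0.25 and the gene was not called (adjusted p = 0.0506 to 0.213).

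Gja5 encodes a connexin of the atria, the conduction system and arterial endothelium (ENSMUSG00000057123, chromosome 3, 96904693 to 97077416, plus strand, 2.9% of exon bases shared with an opposite gene). Its CPM values were 7.80, 9.51 and 11.4 in control hearts and 9.51, 11.2 and 11.4 in mutant hearts, and the groups overlapped. The log2 fold change was 0.16 ± 0.14 (SE; edgeR adjusted p = 0.400), and it was 0.03 without control replicate 1 and 0.30 without control replicate 3. With total counts only Gja5 was called (log2 fold change 0.44, edgeR adjusted p = 0.0213). Its RPKM was 2.32% to 3.01% of that of Gja1 in control hearts and 2.5% to 2.71% in mutant hearts.

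Markers of the places where Gja5 is known were mixed, where 18.1% of all genes tested were higher and 19.5% lower. The atrial markers Myl7 and Sln had 3 to 22 and 0 to 8 counts per library, near 0 beside the depth, and did not pass the filter. The other 4 of the 6 atrial genes (Nppa, Myl4, Dkk3 and Bmp10) were called higher, of which Bmp10, with 0, 2 and 0 counts in control and 20, 13 and 40 in mutant libraries, passed the filter through its mutant libraries alone. The summed level of the list was 62.3 to 73.9 CPM in control hearts and 320 to 381 CPM in mutant hearts. Most of that sum was Nppa, the gene of atrial natriuretic peptide, at 53.7 ± 5.34 CPM in control and 322.5 ± 29.7 CPM in mutant hearts (SD, n = 3 each). As 1 gene made up most of it, and Myl7 and Sln were near 0, the sum is not a measure of atrial tissue. Of the exon bases of Nppa, 61.5% are shared with a gene on the opposite strand. Of 6 conduction system genes, 2 were higher, 1 lower and 3 not called, with sums of 82.3 to 93.4 CPM in control and 83.2 to 104 CPM in mutant hearts. The lower gene, Cntn2, went from 9.28 ± 2.45 to 1.09 ± 0.14 CPM (SD, n = 3 each; log2 fold change -3.09, edgeR adjusted p = 4.82e-06). The higher genes, Irx3 and Etv1, had log2 fold changes of 0.41 and 0.54. Of 6 arterial genes, none was higher and 2 were lower, with sums of 187 to 221 and 159 to 180 CPM, which overlapped as RPKM (41.2 to 47.0 and 40.9 to 48.4). The part of these cells in the Gja5 value was not tested.

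Cdh2 encodes N-cadherin, the classical cadherin of heart muscle (ENSMUSG00000024304, chromosome 18, 16588877 to 16809246, minus strand). It stood at 233.3, 241.0 and 216.6 CPM in control hearts and at 337.8, 357.8 and 341.4 CPM in mutant hearts. All 3 mutant hearts lay well above the control hearts, and the spread within a group was small. It rose 1.5-fold, which is 0.59 ± 0.06 (SE) on the log2 scale (edgeR adjusted p = 9.07e-05), and the call held in each of the 14 other settings tried.

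Cdh3 encodes P-cadherin, a classical cadherin best known from epithelia and placenta (ENSMUSG00000061048, chromosome 8, 106510891 to 106557297, plus strand). The control libraries held 3, 4 and 3 counts of it, and the mutant libraries 103, 226 and 91. Scaled, that was 0.0765, 0.0710 and 0.0610 CPM against 2.03, 4.45 and 1.68 CPM, so the lowest mutant heart was 21.9-fold above the highest control heart. Over the groups the ratio of scaled counts was 39.0, with an exact 95% interval of 21 to 81.9 that covers counting error only. Mutant replicate 2 stood apart at 2.40 times the mean of the other mutant hearts. Without it the log2 fold change was 4.69 in place of 5.24 ± 0.54 (SE), and the gene was still called. With all hearts, edgeR's test gave an adjusted p of 6.90e-05. Cdh3 passed the filter through its mutant libraries alone, so this p and the calls describe its counts and are no further support.

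Even so, P-cadherin transcripts remained scarce beside N-cadherin. Cdh3 made up 0.0518% to 0.0603% of the summed RPKM of Cdh2 and Cdh3 in control hearts, and 1.09%, 2.24% and 0.895% in mutant hearts. Of a list of 9 genes of epicardium and other epithelia, 8 had counts and 4 passed the filter. The keratin genes Krt8 and Krt18, which are known from simple epithelia, were called higher (chosen after their values were seen). Krt8 had 6 counts over the control and 248 over the mutant libraries, so that it too passed the filter through the mutant libraries alone, and its highest mutant value, 2.22 CPM, was again in replicate 2, beside 1.46 and 1.12 CPM in replicates 1 and 3. Krt18 stood at 14.5 CPM in mutant replicate 2 and at 11.2 and 9.15 CPM in replicates 1 and 3. The same heart had the highest mutant value of each of 5 red cell markers. One of them, Hbb-bs (chosen after its values were seen), stood at 145.2 CPM there and at 66.3 and 56.9 CPM in replicates 1 and 3. What sets this heart apart was not tested.

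Of the other genes of the epithelial list, only Wt1 and Krt19 had enough counts to be tested. The list's sum without the keratin genes Krt8 and Krt18 was 9.02 to 10.3 CPM in control hearts and 6.52 to 8.58 CPM in mutant hearts, most of it Wt1. Wt1, the gene of an epicardial factor, was called lower (log2 fold change -0.36, edgeR adjusted p = 0.0370), but its RPKM overlapped between groups (1.16 to 1.39 in control, 1.10 to 1.39 in mutant hearts). Krt19 was not called (adjusted p = 0.0785). The E-cadherin gene Cdh1 had 0 counts in each control library and 1 to 2 in each mutant library. With the keratins, the list's sum was 9.67 to 10.7 CPM in control and 16.8 to 25.3 CPM in mutant hearts.

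Ctnna3 encodes alpha-T-catenin, a form found in heart and testis that binds both cadherin complexes and plakophilin (ENSMUSG00000060843, chromosome 10, 63430098 to 65003667, plus strand). It stood at 43.0, 47.8 and 38.0 CPM in control hearts and at 72.8, 62.5 and 60.4 CPM in mutant hearts. Every mutant heart was above every control heart. It rose 1.52-fold (log2 fold change 0.60 ± 0.10 SE, edgeR adjusted p = 0.00121).

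The broadly expressed alpha-catenin gene Ctnna1 moved the other way. It stood at 879.4, 896.8 and 918.8 CPM in control hearts and at 606.0, 601.1 and 594.2 CPM in mutant hearts, a log2 fold change of -0.58 ± 0.06 (SE; edgeR adjusted p = 5.15e-05). Ctnna3 was thus 2.44%, 2.66% and 2.07% of the summed RPKM of both genes in control hearts and 5.79%, 5.05% and 4.95% in mutant hearts. The ratio of Ctnna3 to Ctnna1 within a heart was 2.28-fold higher in mutant hearts, by 1.19 on the log2 scale, with no overlap. An exact two-sided permutation test over hearts gave p = 0.10, the smallest that 3 hearts against 3 allow. Ctnna1 remained the more abundant form by far in every heart.

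**Figure D2:**
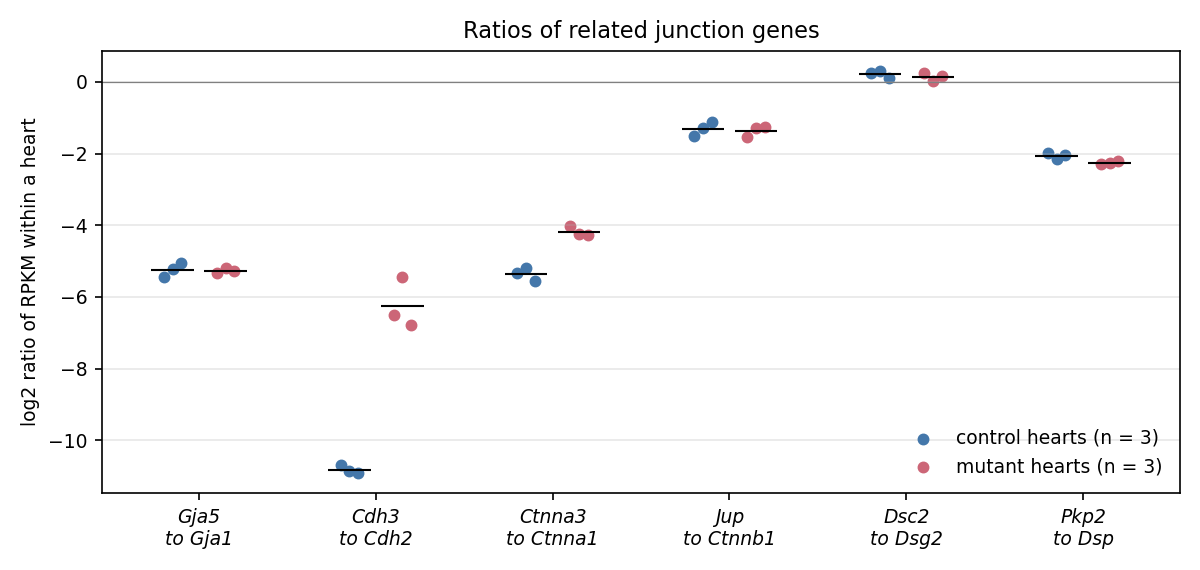
Log2 ratio of RPKM of related genes within each heart, for 3 control and 3 mutant hearts, with group means as lines; a ratio within a heart does not depend on how libraries are scaled. The Cdh3 to Cdh2 and Ctnna3 to Ctnna1 ratios are higher and the Pkp2 to Dsp ratio slightly lower in mutant hearts, while the other pairs overlap.

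Dsp encodes desmoplakin, which ties desmosomes to desmin (ENSMUSG00000054889, chromosome 13, 38151294 to 38198577, plus strand, with 5.2% of its exon bases shared with a gene on the opposite strand). It was the most abundant of the 10 per length in every heart. It stood at 1262, 1328 and 1222 CPM in control hearts and at 1710, 1671 and 1665 CPM in mutant hearts, with a wide gap between groups. It rose 1.32-fold (log2 fold change 0.41 ± 0.06 SE, edgeR adjusted p = 7.73e-04).

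Pkp2 encodes the plakophilin of the heart, an armadillo protein of the desmosome plaque (ENSMUSG00000041957, chromosome 16, 16213318 to 16272712, plus strand). Its values were 179.1, 165.5 and 167.0 CPM in control hearts and 195.6, 192.8 and 200.9 CPM in mutant hearts, close but not overlapping. The log2 fold change was 0.20 ± 0.06 (SE; edgeR adjusted p = 0.0218). This call depended on which hearts were used. The edgeR adjusted p was 0.0855 without control replicate 2, 0.0696 without control replicate 3, 0.0563 without mutant replicate 2 and 0.0881 without mutant replicate 3. The call held without control replicate 1 (0.0159) or mutant replicate 1 (0.0373).

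The remaining desmosome genes were not called and overlapped between groups. Jup encodes plakoglobin, which takes part in both desmosomes and adherens junctions (ENSMUSG00000001552, chromosome 11, 100368958 to 100397763, minus strand). Its CPM was 242.3, 276.4 and 267.8 in control hearts and 222.9, 259.4 and 259.0 in mutant hearts, with a log2 fold change of -0.09 ± 0.08 (SE; edgeR adjusted p = 0.438). With total counts only its sign turned, to 0.20. Dsg2, the desmoglein gene of the heart (ENSMUSG00000044393, chromosome 18, 20558074 to 20604521, plus strand, 4.0% of exon bases shared with an opposite gene), ranged from 141.0 to 153.2 CPM in control and from 139.5 to 168.5 CPM in mutant hearts. Its partner cadherin gene Dsc2, a desmocollin (ENSMUSG00000024331, chromosome 18, 20030633 to 20059554, minus strand), ranged from 97.8 to 115.8 and from 100.3 to 128.3 CPM. Their log2 fold changes were 0.11 ± 0.08 and 0.04 ± 0.10 (SE), with edgeR adjusted p of 0.306 and 0.790.

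**Figure D3:**
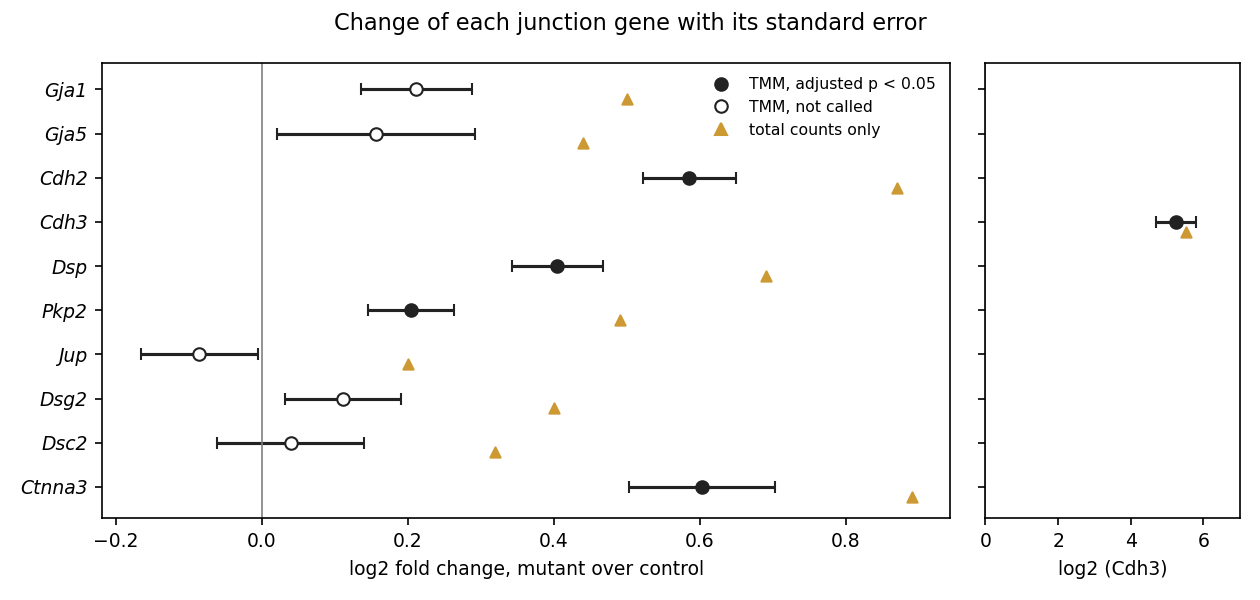
Log2 fold change of mutant over control hearts (3 each) for the 10 junction genes, with TMM scaling (circles with standard error, filled where the edgeR adjusted p is under 0.05) and with total counts only (triangles); Cdh3 has its own axis. Filled circles mark Cdh2, Cdh3, Dsp, Pkp2 and Ctnna3, and the triangles lie to the right of the circles by about the shift of the median gene, 0.28.

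The make-up of desmosome transcripts, which does not depend on the scaling of libraries, held a larger part of desmoplakin in every mutant heart than in any control heart. Dsp was 54.0%, 55.1% and 53.9% of the summed RPKM of the 5 desmosome genes in control hearts and 60.5%, 59.9% and 60.4% in mutant hearts. Jup went from 15.5%, 17.2% and 17.7% to 11.8%, 13.9% and 14.0%. The shares of Pkp2 (12.3% to 13.8% in control, 12.4% to 13.1% in mutant hearts), Dsg2 and Dsc2 overlapped between groups. Shares of a whole are bound to each other, so a larger Dsp share lowers the rest. Within hearts the ratio of Pkp2 to Dsp was 22.4% to 25.5% in control and 20.5% to 21.7% in mutant hearts, lower by 0.20 on the log2 scale without overlap (log2 difference -0.20; exact permutation p = 0.10).

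**Figure D4:**
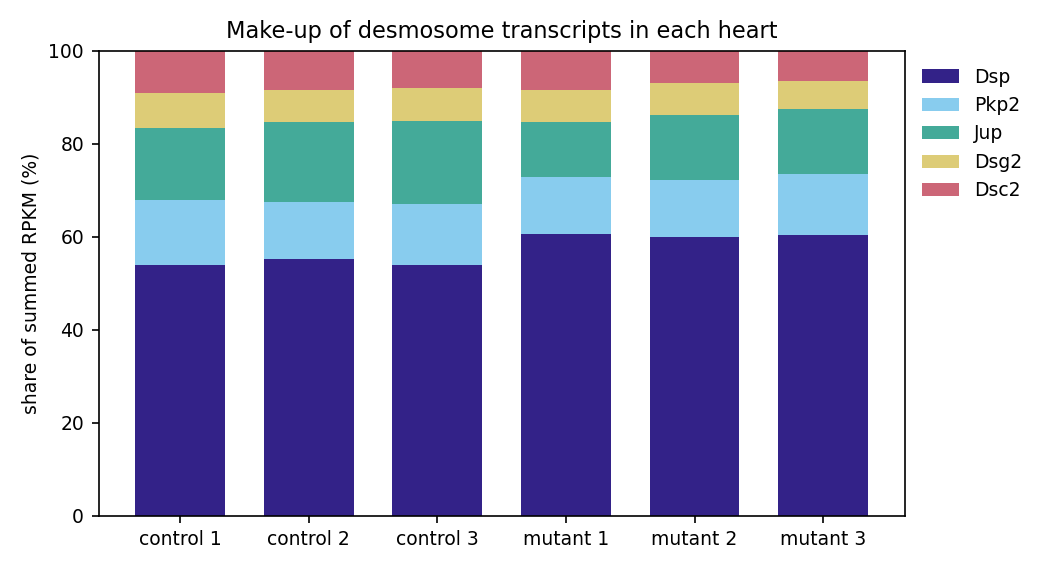
Share of the summed RPKM of the 5 desmosome genes taken by each gene, in percent, as 1 stacked bar per heart (3 control, 3 mutant). The Dsp part is near 54% in the control bars and near 60% in the mutant bars, and the Jup part is thinner in the mutant bars.

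Ratios of the other related pairs overlapped between groups, apart from Cdh3 to Cdh2. The ratio of Dsc2 to Dsg2 was 109% to 124% in control and 102% to 119% in mutant hearts, with a log2 difference of -0.07 (exact permutation p = 0.600). Jup, a relative of beta-catenin, was 35.2% to 46.4% of Ctnnb1 in control and 34.3% to 41.5% in mutant hearts by RPKM, a log2 difference of -0.06 (exact permutation p = 0.700). For Gja5 to Gja1 the difference was -0.04 (exact permutation p = 0.800), and for Cdh3 to Cdh2 it was 4.57 (p = 0.10, exact permutation). In control hearts the Cdh3 to Cdh2 ratio rests on 3 to 4 counts of Cdh3 per library. With 6 pairs compared and 0.10 as the smallest possible p, none could pass a threshold, and a p of this size does not show that a ratio was equal.

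Set side by side per length, the 10 genes spanned a wide range of levels. In control hearts the order by mean RPKM was Dsp (119), Gja1 (55.9), Jup (36.7), Pkp2 (28.7), Cdh2 (25.7), Dsc2 (18.5), Dsg2 (15.9), Ctnna3 (5.35), Gja5 (1.5) and Cdh3 (0.0143). Only Dsc2 and Dsg2 had overlapping ranges as neighbours. In mutant hearts Cdh2, at 47.0 ± 1.89 RPKM (SD, n = 3), stood above Jup (42.1 ± 4.27) and Pkp2 (40.2 ± 1.42), and so moved from place 5 to place 3. There the ranges of Jup and Pkp2 overlapped, as did those of Dsc2 and Dsg2. Of the summed RPKM of the 10 genes, Cdh2 took 8.02% to 8.57% in control and 10.1% to 10.6% in mutant hearts.

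Genes of the other connexins, cadherins and desmosome parts gave mostly small or mixed changes. Of 18 other connexin genes, 6 passed the filter on low counts, of which 2 rose and 4 were not called. Gjc1, a connexin of nodal and vascular cells, was at 41.8 ± 0.566 CPM in control and 54.0 ± 6.93 CPM in mutant hearts (SD, n = 3 each; log2 fold change 0.37, edgeR adjusted p = 0.0101). Gjd3 rose from a low level, with 42 counts over the control and 166 over the mutant libraries (log2 fold change 1.88, edgeR adjusted p = 0.00250). With 6, 25 and 11 counts in control and 38, 60 and 68 in mutant libraries, Gjd3 passed the filter through its mutant libraries. The median of the 6 was 0.16. Over all genes tested, 18.1% were called higher and 19.5% lower.

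Of 17 other cadherin genes, 8 were tested, of which 1 rose, 3 fell and 4 were not called, with a median of -0.10. Among all genes tested, 18.1% rose and 19.5% fell. With total counts only, 3 were called higher, where 50.3% of all genes were, and 1 lower. Cdh24 rose by 0.84 on the log2 scale, Cdh20 fell by 0.67, and Cdh4, which was under 1 CPM, fell by 0.80 (edgeR adjusted p = 0.00647, 0.00458 and 0.0362). The call of Cdh20 was lost with limma on log2(RPKM + 0.1) (adjusted p = 0.0554) and on log2(RPKM + 1) without a filter (0.0982). The call of Cdh4 was lost with DESeq2 (adjusted p = 0.120), total counts only (0.119) and the replicate block (0.0606), and when any 1 heart but mutant replicate 2 was left out (0.0511 to 0.105). Cdh13, which encodes a cadherin without a cell-spanning part, fell by 0.25 with TMM and had a log2 fold change of 0.04 with total counts only. Without mutant replicate 2 its call was lost (adjusted p = 0.0724).

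Of 19 genes for catenins and other partners of adherens junctions, 17 were tested, of which 10 rose, 1 fell (Ctnna1) and 6 were not called, with a median of 0.26. Over all genes tested 18.1% rose and the median was 0.00. With total counts only, 16 were called higher, where 50.3% of all genes were, and 1 lower. Arvcf, an armadillo protein that binds cadherin tails, went from 31.7 ± 2.74 up to 70.4 ± 1.64 CPM (SD, n = 3 each; log2 fold change 1.15, edgeR adjusted p = 3.90e-06). Sorbs2, an adaptor between actin and membrane contacts, rose 2.22-fold to 1138 ± 110 CPM (SD over 3 hearts), and the actinin gene Actn1 rose by 0.55 on the log2 scale. Ctnnb1, the gene of beta-catenin, had a log2 fold change of -0.03 (edgeR adjusted p = 0.783), and 14.6% of its exon bases are shared with a gene on the opposite strand.

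**Figure D5:**
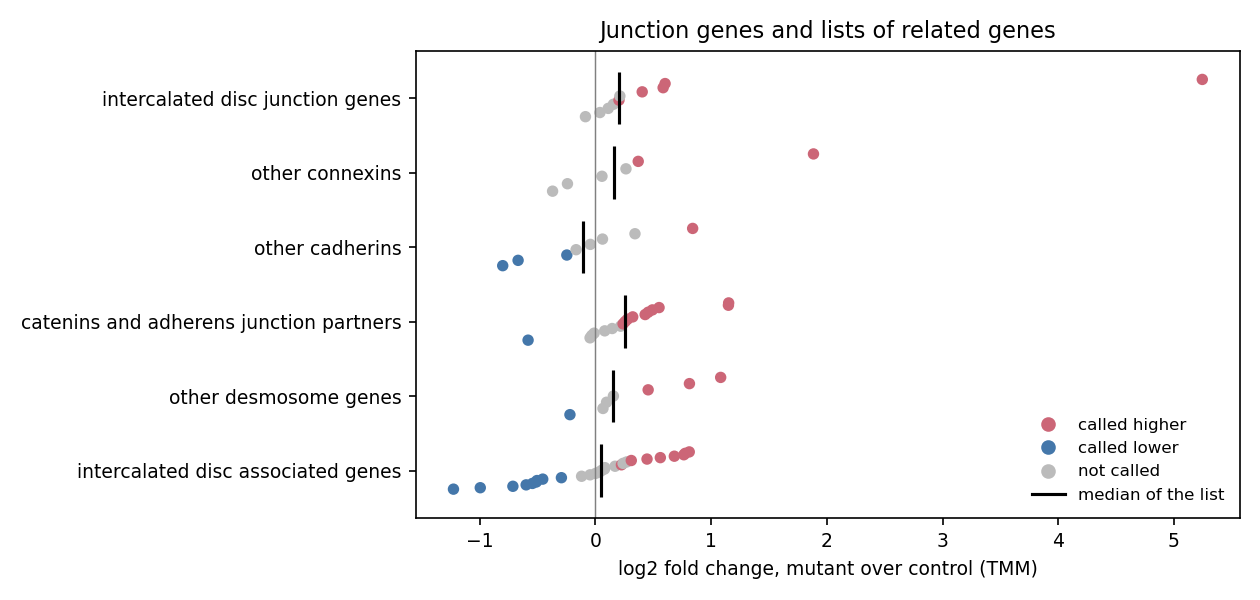
Log2 fold change (TMM) of mutant over control hearts (3 each) for each tested gene of the 10 junction genes and of 5 lists of related genes; colour gives the edgeR call and black bars the list medians. Adherens junction partners lie mostly to the right of 0 apart from Ctnna1, and disc-associated genes lie on both sides.

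Among 15 other desmosome genes, 7 were tested, of which 3 rose, 1 fell and 3 were not called (median 0.16). Over all genes tested, 18.1% rose and 19.5% fell. DESeq2 called 1 higher and 1 lower, where it called 15.7% and 16.5% of all genes. Total counts only, with edgeR, gave 5 higher (50.3% of all genes) and 0 lower. Perp, a membrane protein of desmosomes, went from 282 ± 5.23 up to 495 ± 18.6 CPM (SD, n = 3 each; log2 fold change 0.81, edgeR adjusted p = 7.76e-06). Des, which encodes the desmin that desmoplakin anchors, fell by 0.22 on the log2 scale (edgeR adjusted p = 0.0238) with TMM, and had a log2 fold change of 0.07 with total counts only. The Des call was lost without control replicate 2 (adjusted p = 0.0769) and without mutant replicates 1, 2 or 3 (0.0521 to 0.0543). Ppl and Pkp3, at under 2 CPM, rose by 0.46 and 1.08 but were not called by DESeq2 (adjusted p = 0.122 and 0.195). Pkp3, with 6, 5 and 8 counts in control and 10, 16 and 18 in mutant libraries, passed the filter through its mutant libraries alone. The Ppl call was lost when any 1 heart but control replicate 3 was left out (0.0787 to 0.147). The Pkp3 call was lost without control replicates 1, 2 or 3 or mutant replicate 2 (0.0633 to 0.184), and without mutant replicate 3 the gene did not pass the filter. Both were also lost with the replicate block (0.0567 and 0.0671) and with no filter (0.0518 and 0.0674).

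Genes of other proteins at the disc went both ways with TMM. All 27 were tested, of which 8 rose, 9 fell and 10 were not called, with a median of 0.05. Over all genes tested, 18.1% rose and 19.5% fell. With total counts only, 16 were called higher, where 50.3% of all genes were, and 6 lower. Ilk, which was not called, shares 89.7% of its exon bases with genes on the opposite strand. Nrap, which links actin to the adherens junction, rose from 399 ± 24.6 to 640 ± 20.2 CPM and Bves, of the Popeye family of membrane proteins, from 100.3 ± 3.66 to 170 ± 3.41 CPM (SD, n = 3 each). Tmem65, a disc protein that binds the Gja1 connexin, fell from 267 ± 14.7 to 134 ± 6.58 CPM, and Lrrc10, a heart-specific leucine-rich repeat protein, from 255 ± 7.15 to 109 ± 14.3 CPM (SD, n = 3 each). The edgeR adjusted p of these 4 genes ranged from 4.75e-06 to 4.85e-05.

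Some markers of cell types moved between groups as well, where 18.1% of all genes tested were higher and 19.5% lower. Of 6 heart muscle markers, 3 were lower and 3 not called, and their sum was 31200 to 34500 CPM in control and 26700 to 28100 CPM in mutant hearts. Of 6 endothelial markers, 4 were lower and 2 not called, with sums of 1390 to 1510 and 1190 to 1270 CPM. Of 6 fibroblast markers, a cell type that can also express Cdh2 and Gja1, 3 were higher and 3 not called, with sums of 1350 to 1530 and 1630 to 1800 CPM. Of 6 macrophage markers, 5 were lower and 1 not called, with sums of 94.3 to 99.8 and 60.8 to 65.2 CPM, whereas 5 red cell markers were not called. As RPKM, the sums overlapped for heart muscle (7230 to 8070 in control, 7110 to 7740 in mutant hearts) and endothelium (246 to 267 and 251 to 277), while those of macrophages were still lower (36.4 to 38.7 and 29.5 to 32.2) and those of fibroblasts higher (164 to 183 and 239 to 265). Of 6 smooth muscle and pericyte markers, 1 was higher and 1 lower, and the 3 of 5 glia and nerve markers that were tested were not called. The smooth muscle marker Tagln, which was not called, shares 67.9% of its exon bases with genes on the opposite strand. The part of all these cell types in the junction gene values was not tested.

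Over the 6 hearts, the genes whose log2 CPM followed a member most closely were picked from 11907 protein-coding genes with a mean of at least 1 CPM. For Ctnna3 the nearest was Vcl, the gene of vinculin, an actin-binding partner of alpha-catenin (Pearson r = 0.9985), followed by Ccdc93 (0.9943). Vcl itself went from 135 ± 13.5 to 189.5 ± 12.95 CPM (SD, n = 3 each), and 25.5% of its exon bases are shared with a gene on the opposite strand. For Cdh2 the nearest were Igf2r and Mical2 (0.9993 each), for Cdh3 Rhou and Neil3 (0.9983 each), and for Dsp Ankrd45 (0.9995) and Spsb4 (0.9988). The values rest on 6 hearts in 2 groups, and the 2 nearest of so many genes lay close to 1 for each of the 10, with 0.9865 the lowest, so they describe these hearts only.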

How the data were processed

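Per the labels' protocols, RNA of frozen hearts was taken up in Trizol, and the TruSeq RNA kit v2, which does not mark strand, was used for the libraries. The tools named, per the submitters' processing notes, are STAR 2.5.2b, cutadapt 1.9 and featureCounts 1.5.1, with the build mm10 and no roles; for annotation and strand setting the sources used here give nothing. The authors deposited raw counts per Ensembl gene and RPKM values per heart; RPKM is the count divided by gene length and library total, as tested on the files. Symbols, coordinates and exon overlaps came from GENCODE release M21 (mm10), which matched 20081 of 20121 identifiers.

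The main test was that of edgeR 4.0.16 (R 4.3.3): filterByExpr at its defaults, TMM, the quasi-likelihood F test with group as the only term, and Benjamini-Hochberg adjustment over 14877 genes. The threshold for a call was an adjusted p under 0.05, and only called genes are said to rise or fall. The SE is the log2 fold change over the square root of F. Ratios of 6 gene pairs within a heart were compared by exact permutation. The code was tested on simulated data. Depth was 43314706 to 62095277 counts per library, and p-values speak of the spread among these 6 hearts.

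The 10 members and all lists were chosen with earlier results of these data known. Named were the members, up to 4 called genes with the smallest adjusted p from each of 5 related lists, the pair partners, and the 2 genes nearest in pattern to each member, of which those of 4 members are printed. The alternatives were DESeq2 1.42.0, RLE scaling, total counts only, no filter, limma 3.58.1 on log2(RPKM + 1) and log2(RPKM + 0.1) with a mean RPKM of at least 0.5 or no filter, leaving out each heart, and a replicate block.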

Additional observations from a re-analysis of the deposited data

How the results depend on the processing

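Against 2688 genes higher and 2898 lower (48.1% of calls higher), RLE scaling called 2738 and 2854 and total counts only 7479 and 1207 (86.1% higher). The limma fits, which change test, unit and filter as well as scaling, gave 85.5% to 85.9% of calls higher: on log2(RPKM + 1) 6595 and 1083, on log2(RPKM + 0.1) 6584 and 1077, and on log2(RPKM + 1) without a filter 6916 and 1170. Of the junction genes 9 were then higher with total counts only and 8 with each limma fit, in place of 5. In the limma fits with a filter Cdh3 was left out. On log2(RPKM + 1) without a filter, 34.4% of all genes were higher. Of the related genes 24 were higher and 14 lower; with total counts only these were 43 and 8, on log2(RPKM + 1) 38 and 8, on log2(RPKM + 0.1) 38 and 7, and without a filter 40 and 5. In those 4 settings the log2 fold change of Jup turned to 0.20, 0.19, 0.20 and 0.19, that of Ctnnb1 to 0.25, 0.25, 0.26 and 0.25 (adjusted p 0.0169 to 0.0333), that of Cdh13 to 0.04, 0.03, 0.04 and 0.03, and that of Des to 0.07 in each. The median of all genes was 0.09 to 0.28 higher in these settings.

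Leaving out 1 heart gave 2039 to 2661 genes higher and 2234 to 2856 lower, and 4 to 6 junction genes higher. Dsc2 turned to -0.03 without control replicate 3 and to -0.07 without mutant replicate 1, and Ctnnb1 ran from -0.11 to 0.01, turning without control replicate 1. The log2 difference of the Gja5 to Gja1 ratio ran from -0.13 to 0.05, turning without control replicate 3, and that of Jup to Ctnnb1 from -0.16 to 0.04, turning without control replicate 3 and, to 0.03, without mutant replicate 1, for which the cause was not tested. Cdh2, Dsp and Ctnna3 kept their direction and call in all 14 alternatives. Cdh3 did so in the 12 that tested it, but it passed the main filter through its mutant libraries alone.

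Samples share replicate numbers across groups. Deviations from the group means of same-numbered hearts correlated at 0.155, -0.0502 and 0.0956. Control replicates 1 and 3 correlated best with the mutant heart of the same number, and control replicate 2 with mutant replicate 3 (0.0913). The numbers were not taken to pair the hearts, but these values do not settle whether they do. With the replicate block 3090 genes were higher and 3229 lower, and 6 junction genes were higher, Gja1 being the addition. Depth limits Cdh3 in the control hearts, where a library held 3 to 4 counts.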
